A study of Mus musculus with 18 samples.

Results

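Transcripts of 60 genes for proteins of the cytoplasmic ribosome were followed in single mouse 2-cell embryos. The members were chosen by RefSeq identifier from a list and comprised 36 proteins of the large (60S) subunit and 24 of the small (40S) subunit. All 60 identifiers were present in each of the 18 count tables, out of 26823 transcripts listed and 22526 with at least 1 count in some embryo. No member was absent.

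The 18 libraries were each made from 1 embryo of the 129SVE strain background. The fathers of 9 embryos (named 1-1 to 3-3, the number before the hyphen being the father) were wild-type males 1, 2 and 3 (WT). The fathers of the other 9 (6-1 to 8-3) were males 6, 7 and 8 with a homozygous disruption of Parg, the gene of poly(ADP-ribose) glycohydrolase (labelled KO). The paper calls mice of this genotype hypomorphic, with some glycohydrolase activity left. All mothers were wild type, so that a KO embryo received a disrupted allele from its father only and the label is the genotype of the father. Each father gave 3 embryos, and embryos of 1 father are not independent of each other with respect to that father. The strain is inbred and the age of the embryos is given in the labels only as the 2-cell stage. Parg itself (NM_011960) was counted at 74.7 ± 32.1 CPM (counts scaled to the same library total for every embryo, 1000000; SD, n = 9) in WT and 46.4 ± 18.3 CPM in KO embryos, a log2 fold change of -0.67 (edgeR adjusted p = 0.872), and counts over the whole transcript do not check the disrupted part.

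The ribosome is built from ribosomal RNA and about equal amounts of each ribosomal protein, and in growing cells the messenger RNAs of these proteins are among the most abundant. The large subunit carries the peptidyl transferase centre and the acidic stalk that recruits elongation factors, whereas the small subunit decodes the messenger RNA. The oocyte stores ribosomes and messenger RNAs that the mouse embryo inherits, and the embryo begins its own transcription in earnest at the 2-cell stage, so that a 2-cell embryo can hold maternal and newly made copies of the same messenger RNA. Ribosomal protein genes have also given rise to many processed pseudogenes, which resemble the messenger RNA in sequence.

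The total count per embryo ranged from 2852858 to 13355161, so that 1 count was worth 0.0749 to 0.35 CPM. WT embryos held 14071 ± 1218 transcripts with at least 1 count (SD, n = 9) and KO embryos 12854 ± 693. Of 16 oocyte and 2-cell embryo markers, all 16 passed the filter on low counts, and their summed share was between 0.0902 and 0.23% in every embryo. Of 10 cumulus and granulosa cell markers, 3 passed, their summed share was at most 0.00415%, and Foxl2, Fshr, Inha, Amh, Tnfaip6 and Ptx3 were at 0 in all 18 embryos. Amhr2 had counts in all 18 embryos, at 14.0 ± 10.9 CPM in WT and 8.95 ± 4.37 CPM in KO embryos, and Cyp19a1 was at 0 in 8. Has2 was at 0 in 17 and Ptgs2 in 15. None of 6 sperm and spermatid markers passed, with at most 0.00035%.

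The 59 members with a coding sequence in the mouse annotation used here (GENCODE vM1, genome build mm9) differed widely in how far their sequence is found elsewhere in the genome, which matters because only uniquely aligned reads had been counted. Windows of 30 bases from the middle of 7 coding sequences, each lying inside 1 exon, are shown for members at both ends of this range. Capitals mark the positions at which at least 1 other place in mm9, on either strand, differs from the window by that base alone.
Rpl8: tccgggaactacgccacagtcatctcccac
Rps3: cttcggttcaTtatggagagtggggccaag
Rpl4: tataaTgaagataatggtatcatcaaggcc
Rps15: gaggtggtgaagacGCacctgagggAcatg
Rpsa: aAcacagaTtctcccctgCGctatgtggAC
Rps2: gCCactGccAtcCgagGGGCCatcatcttG
Rpl21: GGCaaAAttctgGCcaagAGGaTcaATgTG

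The Rpl8 window (NM_012053, coding bases 388 to 417, mm9 chromosome 15, 76735355 to 76735384, plus strand) had no other match with at most 1 mismatch. The windows of Rps3 (NM_012052, chromosome 7, 106628528 to 106628557, minus strand) and Rpl4 (NM_024212, chromosome 9, 64024832 to 64024861, plus strand) had no identical copy elsewhere and 1 copy each with 1 mismatch. The Rps15 window (NM_009091, chromosome 10, 79756517 to 79756546, plus strand) had 4 identical copies and 4 with 1 mismatch. That of Rpsa (NM_011029, chromosome 9, 120039428 to 120039457, plus strand) had 5 and 10. The Rps2 window (NM_008503, chromosome 17, 24857980 to 24858009, plus strand) had 20 identical copies and 22 with 1 mismatch, and the Rpl21 window (NM_019647, chromosome 5, 147647141 to 147647170, plus strand) had 43 and 25. A read drawn from the window of Rps15, Rpsa, Rps2 or Rpl21 alone could therefore not be placed uniquely.

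Over whole coding sequences the contrast was of the same kind. For 44 of 59 members, no 50-base stretch of the coding sequence (sampled every 5 bases) was unique in mm9 when 1 mismatch was allowed, against 1.75% of 2000 other tested transcripts drawn with a fixed seed. Fewer members had none when only identical copies were counted, where Rps26 had 26.7% and Rps20 14.3% of stretches unique. The share of unique coding stretches was 91.0% for Rpl8, 73.0% for Rps3 and 46.1% for Rpl4, and its median was 0% over the members and 100% over the 2000 others. With 100-base stretches 38 of 59 members still had none, against 1.35% of the others. Other places in mm9 were counted as similar to a member's coding sequence where at least 3 of its 50-base stretches matched with at most 1 mismatch. Their number ranged from 1 to 97 with a median of 10, and was highest for Rpl21 (97), Rps2 (83) and Rpl17 (68). With the untranslated parts included, the unique share of the members' transcripts was lowest at 2.13% for Rps12 and had a median of 20.3%. The length of the reads is not given in the sources used here, so that these shares describe the genome and not the libraries.

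The 60 members together took 0.445% ± 0.129 (SD, n = 9) of all counts in WT embryos and 0.431% ± 0.147 in KO embryos. In WT embryos the summed share was lowest at 0.313% in embryo 2-1, had a median of 0.402% and was highest at 0.751% in 3-1. In KO embryos it ran from 0.2% in 7-1 over a median of 0.421% to 0.639% in 6-1. The range of the KO embryos thus enclosed all WT embryos but 3-1, and the difference between the group means was -0.0139 percentage points, a small fraction of the spread within either group.

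Embryos of the same father were spread widely. The share averaged 0.464% ± 0.059 (SD, n = 3) over the embryos of father 1, 0.365% ± 0.0461 over those of father 2 and 0.505% ± 0.214 over those of father 3. It averaged 0.427% ± 0.184 for father 6, 0.435% ± 0.209 for father 7 and 0.43% ± 0.0941 for father 8. The means of the 3 KO fathers lay within the range of the 3 WT fathers, and the 3 embryos of father 7 alone, at 0.2%, 0.504% and 0.602%, spanned most of the range of all KO embryos.

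**Figure D1:**
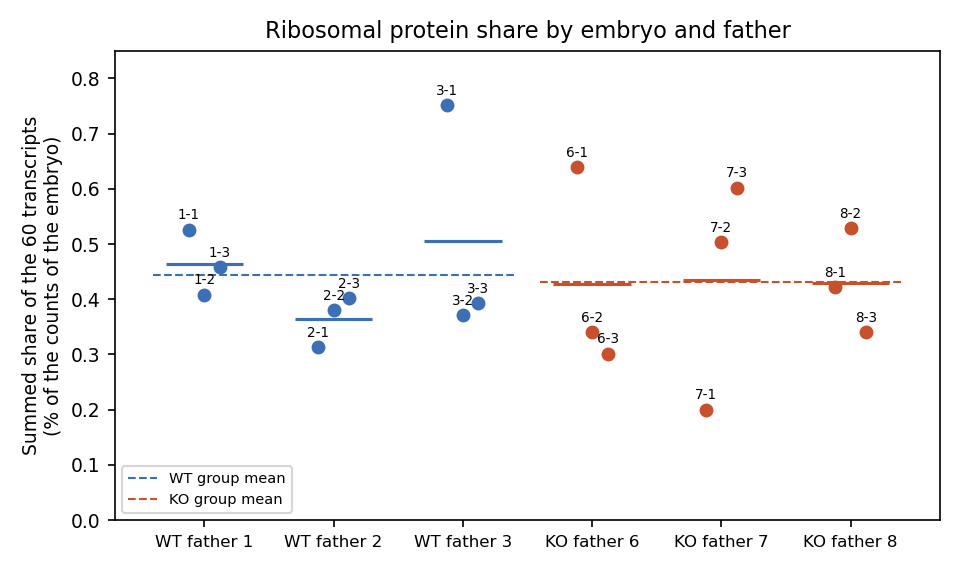
Summed share of the 60 ribosomal protein transcripts in the counts of each embryo (y axis, percent), by father (x axis); points are embryos, short lines the mean of a father's 3 embryos and dashed lines the group means. The WT mean is 0.445% and the KO mean 0.431%, and embryo 3-1 stands highest at 0.751%, embryo 7-1 lowest at 0.2%.

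The subunits were also summed apart. Large subunit members took 0.36% ± 0.109 of the counts in WT and 0.343% ± 0.116 in KO embryos, and small subunit members 0.0844% ± 0.0218 and 0.0881% ± 0.035. The 3 stalk proteins Rplp0, Rplp1 and Rplp2 together took 0.00442% ± 0.00148 in WT and 0.00452% ± 0.00302 in KO embryos. Embryo 3-1 was the highest WT embryo for both subunits (0.618% and 0.133%) and embryo 7-1 the lowest KO embryo for both (0.17% and 0.0297%).

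Much of each sum came from a pair of large subunit transcripts. Rpl41 (NM_018860), which encodes the smallest ribosomal protein, a short basic peptide, and Rpl4 (NM_024212), a core protein of the large subunit that lines the exit tunnel, together made up 58.9% ± 3.57 (SD, n = 9) of the members' counts in WT and 57.0% ± 5.74 in KO embryos, with a range from 50.8% in embryo 7-2 to 69.0% in 8-3. Rpl41 stood at 1113 CPM in the lowest, 1527 in the median and 2234 CPM in the highest WT embryo, and at 426, 1440 and 2390 CPM in KO embryos. The lowest Rpl41 value of all belonged to embryo 7-1, where it was at 2149 counts, and the ranges of the groups overlapped. Rpl4 stood at 752, 957 and 2070 CPM in the lowest, median and highest WT embryo and at 612, 930 and 1391 CPM in KO embryos. Without this pair the other 58 members took 0.184% ± 0.0585 of the counts in WT and 0.187% ± 0.0746 in KO embryos.

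Below this pair the levels fell off steadily. A median over the 18 embryos above 100 CPM was reached by 6 members, which were Rpl41, Rpl4, Rpl21, Rpl13a, Rps15 and Rps3. Another 26 had medians between 10 and 100 CPM, 24 between 1 and 10 CPM, and 4 (Rpl3, Rpl27a, Rps16 and Rps13) under 1 CPM. Although the proteins enter the ribosome in about equal amounts, the highest and lowest of the 59 members with a known coding length differed 926.7-fold in median CPM per kb of coding sequence. The highest on this scale was Rpl4 at 741 CPM per kb. It was followed by Rpl21 at 507, Rps15 (in the head of the small subunit) at 309 and Rpl13a (which also serves in a complex that silences translation) at 261 CPM per kb. Next came Rps19, the gene most often mutated in Diamond-Blackfan anaemia, at 208 CPM per kb, Rps26 at 181.0, Rps3 (which lines the entry site of the messenger RNA) at 157, Rps20 at 145 and Rps28 at 129 CPM per kb. At the low end stood Rps13 at 0.799 and Rpl3, a core protein near the peptidyl transferase centre, at 0.814 CPM per kb.

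**Figure D2:**
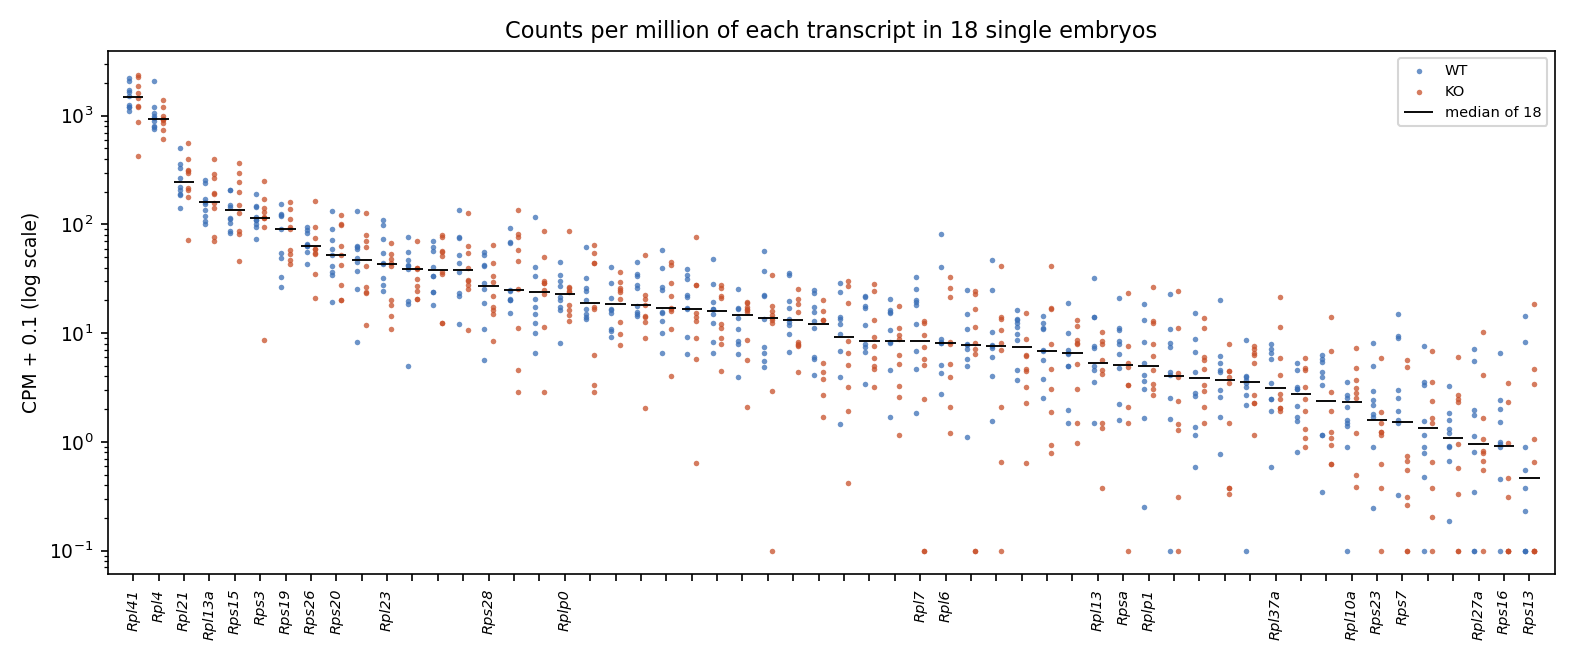
CPM plus 0.1 (y axis, log scale) of 56 of the 60 transcripts (x axis, ordered by median, some of them named) in the 9 WT and 9 KO embryos; black lines are the medians of all 18 embryos and points at 0.1 are embryos with 0 counts. Medians run from 1484 CPM for Rpl41 to 0.364 CPM for Rps13, and the WT and KO points overlap for each transcript plotted.

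Level and uniqueness were set side by side. The 15 members with some unique coding stretch had a median of 65.6 CPM per kb (range 14.1 to 741), and the 44 without one had a median of 15 CPM per kb (range 0.799 to 507). Of the 9 members named above as the highest per kb, together with the next, Rpl22 at 122 CPM per kb, 6 had a unique coding stretch and 4 (Rpl21, Rps26, Rps20 and Rps28) had none with 1 mismatch allowed. Spearman's rho over the 59 members was 0.43 between the unique coding share and CPM per kb and -0.45 between the number of similar places in the genome and CPM per kb. With only identical copies counted, rho for the unique coding share was 0.53. For the unique share of the transcript with its untranslated parts, rho was 0.36. These coefficients are across genes of the same 18 libraries, which are not independent replicates. Rpl21 had the most similar places and the second highest level. Rpl8, with 91.0% of its coding stretches unique, stood at 23.1 CPM per kb only. With the untranslated parts included, the unique share was 42.9% for Rpl21, 87.6% for Rps20, 18.2% for Rps28 and 10.1% for Rps26. Levels were divided by the coding length alone, although counts were per whole transcript. What part of the differences in level came from the counting of unique reads was not tested.

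**Figure D3:**
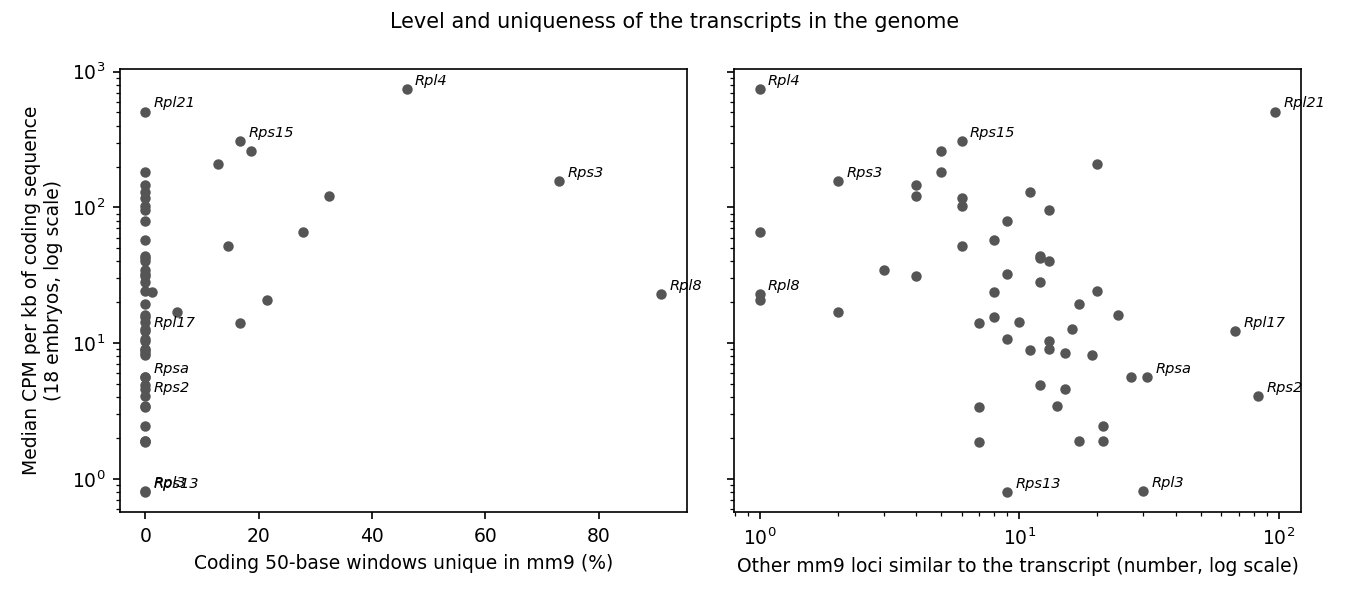
Median CPM per kb of coding sequence (y axis, log scale, 18 embryos) of 55 members against the percentage of 50-base coding stretches that are unique in mm9 (left) and the number of other mm9 places similar to the coding sequence (right, log scale, labelled as the transcript). Members without a unique stretch range from 0.799 to 507 CPM per kb, and Rpl21, with 97 similar places, lies apart from the rest.

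The members' levels were compared between embryos. Over the 60 members, Spearman's rho of CPM between 2 embryos had a median of 0.79 over the 153 pairs (range 0.64 to 0.91). Over the same members, Pearson's r of log2(CPM + 1) between 2 embryos had a median of 0.84 (range 0.73 to 0.92), and both are descriptions across genes within this set. The coefficient of variation of a member's CPM over the 18 embryos had a median of 67.8%. Among the lowest were Rpl4 (32.4%), Rpl41 (34.2%), Rps3 (40.4%) and Rps26 (45.1%). It was highest for Rps13 (187%), Rpl27a (136%), Rps7 (134%), Rps16 (133%) and Rpl6 (131%), and it was lower at higher median levels (Spearman's rho -0.79 across the 60 members). For a fairer measure, the dispersion fitted by edgeR was compared with its trend at the same abundance. Only 2 of 60 members, Rpl38 and Rps13, lay above the trend, against 39.5% of the 15333 transcripts tested.

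Counts of 0 were few. Among the 1080 values of 60 members in 18 embryos, 33 were 0 (3.06%), 10 in WT and 23 in KO embryos, and 45 members had no 0 at all. Rps13 was at 0 in 7 embryos, Rps16 in 5, Rpl27a in 3, and Rpl7, Rpl11, Rps3a1, Rps7, Rpl10 and Rpl3 in 2 each. Rpl14, Rpl5, Rpsa, Rpl15, Rpl10a and Rps23 were at 0 in 1 embryo each. A count of 0 allows up to 3 counts, which is 0.225 CPM in the deepest library (2-1) and 1.05 CPM in the shallowest (2-3), for counting error only. Each of the 3 embryos of father 8 had 4 members at 0, those of father 7 had 4, 1 and 3, and those of father 6 had 1 each. The number of transcripts detected among all genes moved the opposite way, at 12366 ± 294 (SD, n = 3) for father 8, 12635 ± 690 for father 7 and 13562 ± 422 for father 6. So did the total count, at 5496570 ± 1827420 for father 8, 6268980 ± 2703290 for father 7 and 10987900 ± 1465280 for father 6. Embryos of WT fathers 1, 2 and 3 averaged 1, 1.67 and 0.667 members at 0, at mean total counts of 8484630, 8116080 and 7412100. The part of the transcripts detected or of the total count in the counts of 0 was not tested.

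The question of the study was whether altered sperm chromatin in the KO fathers goes with altered gene expression in their embryos. For the ribosomal protein transcripts, no difference between the 9 KO and the 9 WT embryos passed the test. All 60 members passed the filter on low counts, which asked for 10 counts or more in 3 or more embryos, and 0 were called at an adjusted p under 0.1 by edgeR's quasi-likelihood test, with the smallest adjusted p at 0.918. In the same fit 0% of the 15333 transcripts were called. At an unadjusted p under 0.05, 0 members were lower and 0 higher in KO embryos, where 3.32% of all transcripts tested were lower and 2.48% higher. DESeq2 called 0 of the 59 members to which it gave an adjusted p, and 0.293% of all transcripts. Since these are whole embryos amplified one by one, fewer copies of a transcript in the embryo and a smaller yield of it in amplification cannot be told apart.

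The fold changes centred near 0. The log2 fold change was below 0 for 33 members and above 0 for 27 (51% of all transcripts were below 0), with a median of -0.05 beside -0.02 over all transcripts. The median was -0.07 over the 36 large subunit members, where 21 were below 0, and 12 of the 24 small subunit members were below 0. The median standard error was 0.61 for the members and 0.92 for all transcripts. No member had groups that did not overlap in CPM, as 0.00652% of all transcripts had.

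Abundant members allowed a narrow bound. The 95% interval lay within a 2-fold change in either direction for 9 of 60 members (12.6% of all transcripts), among them Rpl41, Rpl4, Rpl21, Rpl13a, Rps3, Rps19, Rps26 and Rps20. For Rpl41 the log2 fold change was -0.06 with an interval from -0.57 to 0.45, and for Rpl4 -0.15 with an interval from -0.57 to 0.27. An interval above a 2-fold fall was found for 17 of 60 members (30.9% of all transcripts). For the others, the interval reached past a 2-fold fall. The interval of Rps13 was the widest, from -2.85 to 3.27.

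**Figure D4:**
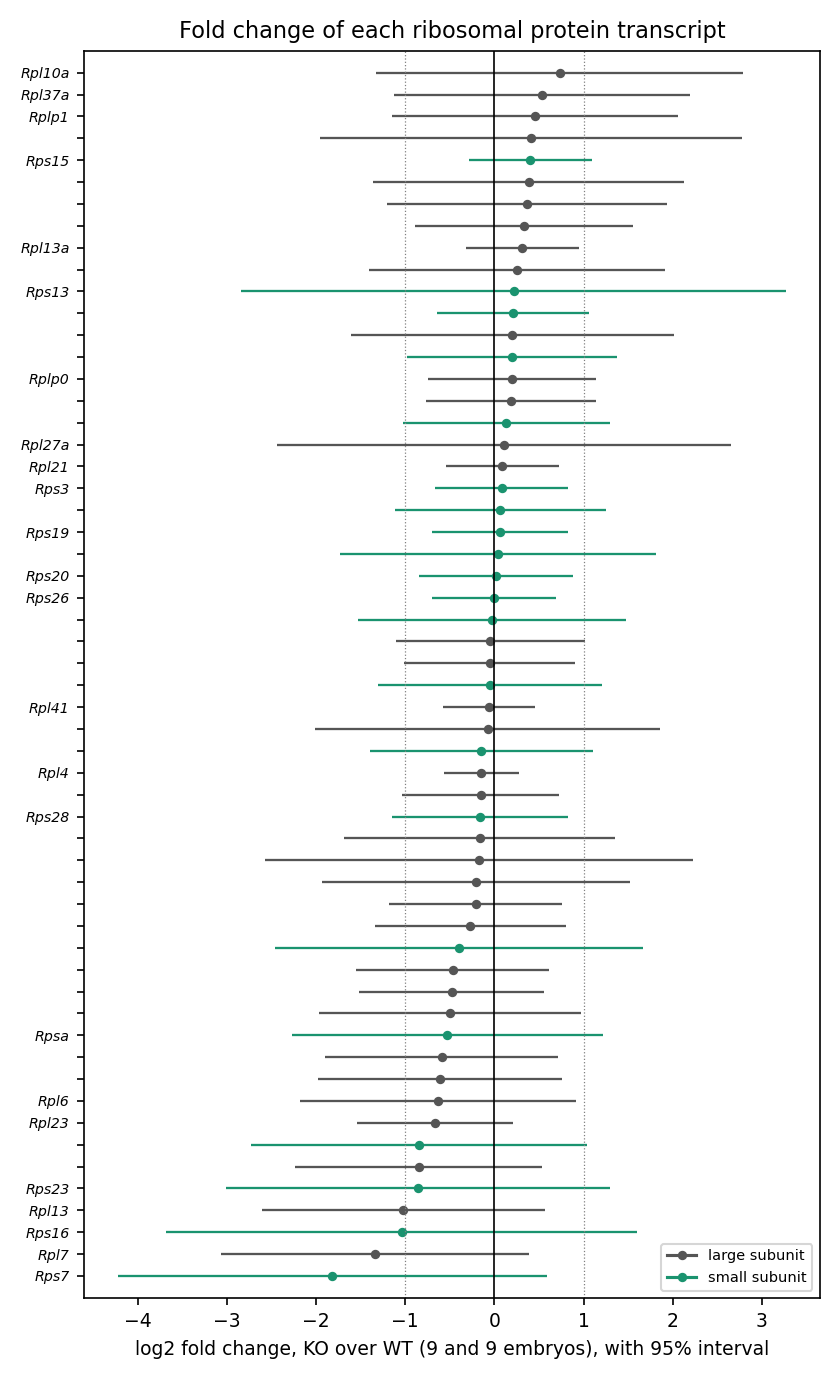
Log2 fold change of 56 of the 60 transcripts (y axis, some of them named), KO over WT (x axis), with its 95% interval from edgeR's quasi-likelihood fit on 9 and 9 embryos; dotted lines mark a 2-fold change in either direction. All 56 intervals cover 0, and they are narrowest for Rpl4 and Rpl41.

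The members with the largest differences were low in counts. Rps7, a small subunit protein, stood at 0.225, 2.45 and 14.9 CPM in the lowest, median and highest WT embryo and at 0, 0.456 and 5.58 CPM in KO embryos. Its log2 fold change was the lowest of all, -1.82 ± 1.17 (SE; edgeR adjusted p = 0.921) and the groups overlapped, with embryos 7-1 and 8-2 above the WT median. Rpl7, a large subunit protein, stood at 1.75, 17.9 and 33.0 CPM in WT embryos and at 0, 5.64 and 12.9 CPM in KO embryos. Its log2 fold change was -1.34 ± 0.84 (edgeR adjusted p = 0.918). No KO embryo reached the WT median of Rpl7, and 4 WT embryos (1-2, 2-1, 2-2 and 2-3) lay within the KO range.

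Rps16 had a log2 fold change of -1.04 ± 1.28, Rpl13 of -1.02 ± 0.77 and Rps23 of -0.85 ± 1.05. Rpl23, a large subunit protein that also binds Mdm2, was more abundant, at 24.1, 43.7 and 109 CPM in WT and 10.7, 41.0 and 66.7 CPM in KO embryos. It differed by -0.67 ± 0.42 on the log2 scale (edgeR adjusted p = 0.918).

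Among the members higher in KO embryos, Rpl10a came first with a log2 fold change of 0.73 ± 1.00 and the median levels were low, at 1.5 CPM in WT and 2.72 CPM in KO embryos. Rpl37a differed by 0.53 ± 0.80 and the stalk protein Rplp1 by 0.46 ± 0.78.

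Rps15 differed by 0.40 ± 0.34 (edgeR adjusted p = 0.965) and Rpl13a by 0.31 ± 0.31 (edgeR adjusted p = 0.969), which were among the 3 smallest p-values in this direction. Rps15 stood at 83.0, 114 and 207 CPM in the lowest, median and highest WT embryo and at 45.6, 151 and 367 CPM in KO embryos. The KO embryos of Rps15 thus reached both below and above the WT range.

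The remaining named members had no adjusted p under the threshold either. Rplp0 (NM_007475), the core protein of the stalk, stood at 24.4 ± 11 CPM in WT and 27.6 ± 22.5 CPM in KO embryos (log2 fold change 0.19 ± 0.46), with embryo 6-1 alone at 86.2 CPM. Rpsa, which also serves as a laminin receptor at the cell surface, stood at 8.17 ± 5.88 and 5.61 ± 6.96 CPM (-0.53 ± 0.85). Rpl21, Rps3, Rps19, Rps26 and Rps20 had log2 fold changes of at most 0.09 in size. Rps28 was at -0.16 ± 0.48, Rpl6 at -0.63 ± 0.75, Rpl27a at 0.11 ± 1.23 and Rps13 at 0.21 ± 1.48.

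The 3 embryos of each KO father were then compared with the 9 WT embryos, and these comparisons share their controls. For father 6, 0 of 60 members were called at an adjusted p under 0.1 (0.00696% of 14377 transcripts), and 2 had an unadjusted p under 0.05 (7.18% of transcripts). Among these was Rps7 with a log2 fold change of -4.10 (edgeR adjusted p = 0.69). For father 7, Rps13 did not pass the filter, 0 of 59 members were called (0% of 14039 transcripts) and 0 had an unadjusted p under 0.05 (8.78%). For father 8, 0 of 60 were called (0% of 13936 transcripts) and 1 had an unadjusted p under 0.05 (8.94%).

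That member was Rpl23, at 18, 19.9 and 10.7 CPM in embryos 8-1, 8-2 and 8-3. All 3 values lay below the lowest WT embryo at 24.1 CPM. The log2 fold change was -1.82 (edgeR adjusted p = 0.556), and DESeq2 called it with an adjusted p of 0.0578. With DESeq2, 1.47%, 2.91% and 2.31% of transcripts were called in the families of fathers 6, 7 and 8, and Rpl23 in father 8 was the single member among them. Rpl23 was not low in the embryos of father 6, at 66.7, 44.2 and 48.0 CPM, so that the difference between the groups of 9 rested on fathers 7 and 8, where embryo 7-1 was at 14.3 CPM and 7-2 and 7-3 at 41.0 and 53.7 CPM.

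The median log2 fold change of the members was 0.00 for father 6, -0.13 for father 7 and -0.30 for father 8, beside -0.10, -0.14 and -0.20 over all transcripts tested in the same fits. Of the members tested, 30 of 60, 34 of 59 and 39 of 60 were below 0. The members thus lay on both sides of 0 in every family and their medians lay near those of all transcripts.

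Each KO embryo was also compared alone with the 9 WT embryos (after a filter that asked for 10 counts or more in any of the 10 embryos), where the spread comes from the WT embryos and 1 embryo has no replicate. By edgeR 0 of 60 members were called at an adjusted p under 0.1 in any of the 9 embryos. Of all transcripts, 0.027% were called in embryo 6-1, 0.0108% in 6-2, 0.0162% in 6-3, 0.157% in 7-1, 0.157% in 7-2 and 0.103% in 7-3, and 0%, 0.0545% and 0% in 8-1, 8-2 and 8-3.

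At an unadjusted p under 0.05, the largest number of members was found in embryo 7-1, 7 of 60 (7.34% of transcripts), all lower. Embryo 7-2 had 6 (8.47%), 8-3 had 5 (4.62%), 6-1 had 4 (5.49%) and 7-3 had 4 (6.03%). Embryos 6-2, 8-1 and 8-2 had 2 each (4.68%, 4.95% and 5.98%) and 6-3 had 1 (3.96%). Over the 9 embryos these were 24 lower and 9 higher values, where 59.1% of such transcripts were lower. In embryo 6-1 all 4 (Rplp0, Rpl13a, Rpl38 and Rps26) were higher, and in 8-3 all 5 (Rpsa, Rpl11, Rpl23 and Rpl38 among them) were lower. Among KO embryos, 6-1 had the highest summed share and 7-1 the lowest, a sum of the same counts as in these fits.

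**Figure D5:**
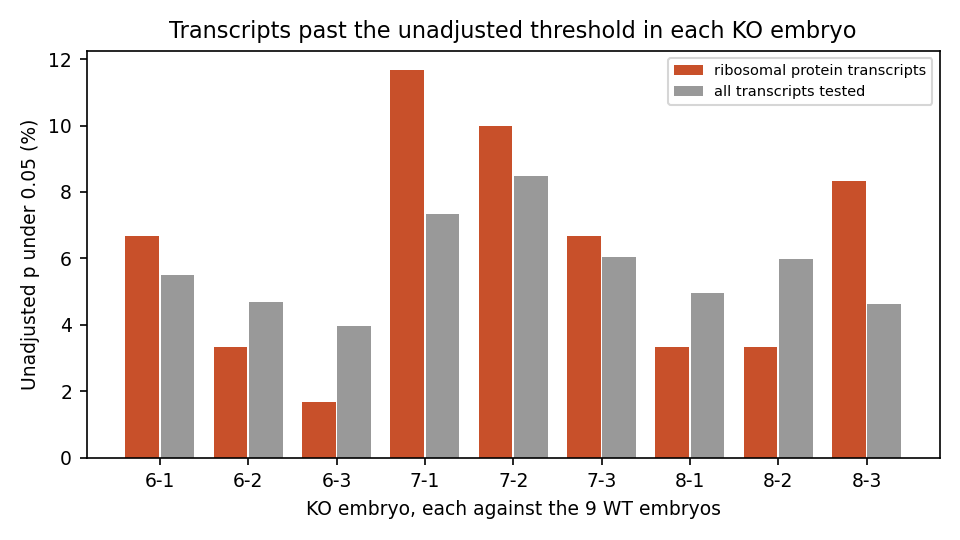
Percentage of the 60 ribosomal protein transcripts and of all transcripts tested with an unadjusted p under 0.05 (y axis) in each KO embryo compared alone with the 9 WT embryos (x axis), by edgeR's quasi-likelihood test. The ribosomal protein bars stand for 1 to 7 transcripts, with 7 in embryo 7-1 and 1 in 6-3.

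Embryo 7-1 had the lowest summed share of the members. Rps3 was at 43 counts (8.52 CPM) in this embryo, against 74.0, 110 and 191 CPM in the lowest, median and highest WT embryo and 94.9 to 249 CPM in the other 8 KO embryos. Its log2 fold change was -3.82 (edgeR adjusted p = 0.113). Rpl41 was at 426 CPM in 7-1 (-1.87, edgeR adjusted p = 0.306) and Rpl14 at 0 counts, where WT embryos had 21 to 396 counts. The members below 0 numbered 55 of 60 in this embryo, with a median of -1.27, beside 67.6% and a median of -1.05 over all transcripts in the same fit. Embryo 8-3 came next with 52 of 60 and a median of -1.07, beside 70.1% and a median of -1.11 over all transcripts. Over the other 8 KO embryos the members below 0 numbered 20 to 52, where 66.5% to 71.2% of all transcripts were below 0. In 6-3 they numbered 49 of 60 (66.5% of all transcripts) and in 6-1 20 of 60 (67.5%). The median of the members ran from -1.07 to 0.52 in these 8 embryos, above that of all transcripts in each of them. In 6-1 it was 0.52 beside -0.998, and in 7-2 0.00 beside -1.66. A transcript with counts in 1 embryo alone could pass the filter of these fits. The median over all transcripts was -0.02 in the fit of 9 against 9 embryos. Nothing particular to the members is read from these medians, and the part of the filter was not tested. In embryo 7-1 the total of 5048902 counts and the 13401 transcripts detected were both inside the range of the other embryos.

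DESeq2 gave another count for single embryos. It called 26 values of 19 members at an adjusted p under 0.1, in 8 of the 9 embryos, where edgeR called 0. All 26 were lower than in WT embryos, as were 92.0% of all transcripts that DESeq2 called in these fits, and 9 of the 26 were at 0 counts in the embryo. The calls numbered 0 of 56 members with an adjusted p in embryo 6-1 (7.28% of transcripts), 2 of 54 in 6-2 (4.32%) and 1 of 54 in 6-3 (3.15%). They numbered 6 of 52 in 7-1 (8.9%), 5 of 56 in 7-2 (14.7%) and 2 of 52 in 7-3 (7.03%). For father 8 they numbered 2 of 47 in 8-1 (4.01%), 2 of 54 in 8-2 (7.2%) and 6 of 51 in 8-3 (4.77%). Rps3 in 7-1 had the smallest adjusted p (1.61e-07 by DESeq2).

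Other genes of the translation machinery gave no called transcript either, with 1 row per gene, that of the highest total count, taken for each list. Of 27 further ribosomal protein genes 26 were tested, with 11 below and 15 above 0, a median log2 fold change of 0.12 and 0 with an unadjusted p under 0.05. The highest of these was Rps24 (NM_207635), at 141 ± 34.8 CPM in WT and 133 ± 43.0 CPM in KO embryos, and then Rpl26 at 88.7 ± 54.4 and 107 ± 53.0 CPM. Of 78 mitochondrial ribosomal protein genes 71 were tested, with a median of -0.05, and 3 lower and 2 higher transcripts at an unadjusted p under 0.05. Mrpl51 and Mrpl18 were the highest of them, at medians of 37.5 and 29.9 CPM over the 18 embryos.

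All 37 genes of the initiation factor list, which also held Eif4ebp1, Eif4ebp2 and Pabpc1, were tested. Of these, 25 were below and 12 above 0, with a median of -0.18. The highest, Eif5b, which joins the subunits, stood at 4348 ± 866 CPM in WT and 3830 ± 812 CPM in KO embryos. Eif3a, the large scaffold subunit of initiation factor 3, stood at 3797 ± 1036 and 2661 ± 431 CPM and was the only one of the 37 rows with an unadjusted p under 0.05 (log2 fold change -0.51, edgeR adjusted p = 0.438). A row of Eif2b3 that was not taken for the list (NM_175135) had a log2 fold change of -1.53 (edgeR unadjusted p = 0.032, adjusted p = 0.804). The 11 elongation and release factor genes had a median of 0.23. Eef2k, the kinase of elongation factor 2, was the only one of them with an unadjusted p under 0.05, at 36.1 ± 22.8 CPM in WT and 84.97 ± 74.2 CPM in KO embryos (log2 fold change 1.22, edgeR adjusted p = 0.671). The highest of the 11, Eef2, the translocase, stood at 328 ± 75.3 and 291 ± 87.7 CPM, followed by Etf1 at 218 ± 60.3 and 178 ± 46.0 CPM. The 53 ribosome assembly genes had a median of -0.01, with 1 at an unadjusted p under 0.05. This was Taf1a, a factor of RNA polymerase I, at 71.6 ± 21.0 and 122 ± 44.3 CPM (log2 fold change 0.77, edgeR adjusted p = 0.649). Npm1 and Ncl, abundant proteins of the nucleolus, stood at 5430 ± 2029 and 4573 ± 745 CPM in WT and at 4948 ± 1613 and 4107 ± 1323 CPM in KO embryos. In these embryos each of these 3 leading factors (Eif5b, Npm1 and Ncl) had a higher median CPM than any of the 60 ribosomal protein transcripts. That scale is not corrected for length, nor for reads without a unique alignment, which were not counted.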

How the data were processed

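Single 2-cell embryos had been amplified with the WT-Ovation One-Direct kit and sequenced on a HiSeq 2000. The authors aligned the reads to mm9 with RUM, kept unique alignments, and deposited raw counts per RefSeq transcript; the counting tool and read length are not given in the sources used here. The submitters' processing notes name DESeq 1.10.0. Groups and fathers came from the labels. Members and gene lists were chosen with earlier results of these data known.

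Counts were tested with edgeR 4.0.16 (TMM, glmQLFit and glmQLFTest, Benjamini-Hochberg adjustment over all transcripts tested, threshold 0.1, at least 10 counts in at least 3 embryos) in R 4.3.3, without a term for father. DESeq2 1.42.0 and limma 3.58.1 served as alternatives. Standard errors were the log2 fold change divided by the root of F. No test was made of the summed share or of a median over members. The edgeR fits were also run on simulated counts, with outcomes that are not given here. Levels per kb used the coding length of the shortest consensus coding transcript in GENCODE vM1 (59 of 60 members; Rpl41 had none and is given in CPM), whereas the full transcript had been planned. Members named singly were the 10 highest per kb, the 5 largest differences each way, the 3 smallest p each way, the 5 largest and 5 smallest coefficients of variation, and Rpsa and Rplp0; 4 members are not reported singly here, and other names were chosen after their values were seen.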

Additional observations from a re-analysis of the deposited data

Results flagged for a closer look

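Values were marked where the highest or lowest of 9 embryos in a group lay apart from the next by more, as a fraction of the group's range, than Dixon's 95% critical value. Chance marks about 1 in 20 groups, 54 groups were examined, 16 were marked, and the levels are skewed.

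Among WT embryos, 3-1 was apart with a summed share of 0.751% (next 0.526%), a large subunit share of 0.618%, a small subunit share of 0.133%, Rpl4 at 2070 CPM (next 1195) and Rpsa at 21.0 CPM. Rpl6 was apart at 81.7 CPM in 2-3, Rpl13 at 31.9 CPM in 3-2 and Rps16 at 6.43 CPM in 1-2.

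Among KO embryos, 6-1 was apart with Rps26 at 166 CPM and Rplp0 at 86.2 CPM (next 26.4). In 7-3, Rplp1 was at 26.6 CPM. In 8-2, Rpsa was at 23.2 CPM and Rps13 at 18.5 CPM. Rpl37a was at 21.5 CPM in 7-2, Rps23 at 5.84 CPM in 8-3 and Rpl27a at 10.1 CPM in 7-1. All 16 were the highest value of their group.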

How the results depend on the processing

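The count of 0 members called between the groups of 9 held in all 34 alternatives tried, which were other size factors, no TMM, other filters on low counts, identical rows merged, DESeq2, limma with father as random effect, counts summed per father, the replicate block, a threshold of 0.05, and leaving out each father or embryo. Single-embryo comparisons gave 0 calls under every edgeR setting and 26 under DESeq2, and father 8 gave 1 under DESeq2; the cause was not tested. Members lower at an unadjusted p under 0.05 numbered 0, 3 with limma and father as random effect (Rps7 and Rpl7 among them) and 1 with the replicate block. Leaving out single fathers or embryos gave 0 to 1, the 1 being Rpl23 without father 6 (edgeR adjusted p = 0.626). The embryo numbers do not pair samples: deviations of same-numbered embryos of the other group had a median correlation of 0.01 over 27 pairs, and the block changed no call.

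The summed share, KO minus WT, stayed within -0.0538 and 0.0244 percentage points when a father or embryo was left out, and the median log2 fold change of the members within -0.20 and 0.09, so that neither sign was stable. Summing counts per father gave a median of 0.01 in place of -0.05. Of 24 named members, 11 kept their sign in every alternative. Signs turned for Rpl41 (0.0062) and Rpl27a (-0.16) with counts summed per father, where Rps26 was at 0.13. Rps26 was at 0.008 with other size factors, 0.0087 with DESeq2 and 0.0053 without a filter. With limma Rps3 was at -0.14, and with the replicate block Rps13 at -0.96 and Rpl27a at -0.036. With a father or embryo left out, log2 fold changes ranged from -0.11 to 0.25 for Rpl21, -0.78 to 1.47 for Rpl27a, -0.0584 to 0.89 for Rpl37a, -0.25 to 0.0285 for Rpl4, -0.21 to 0.0883 for Rpl41 and -1.06 to 0.19 for Rpl6. They ranged from -0.38 to 0.42 for Rplp0, -1.15 to 1.38 for Rps13, -0.21 to 0.23 for Rps19, -0.18 to 0.27 for Rps20, -0.30 to 0.17 for Rps26 and -0.44 to 0.0698 for Rps28. For Rps3 they ranged from -0.11 to 0.25. No adjusted p of a named member was under 0.446 in any of these fits.

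The 3 fathers a group limit what can be said of fathers, and members of low counts have wide intervals.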
